A study of Mus musculus with 17 samples.

Results

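Wild-type (WT) mouse uterus 24 h after estradiol (E2) was compared with WT uterus at 0 h, over all genes measured. The arrays were chosen by their labels, and 4 of the 17 arrays in the study belong here, 2 labelled WT at 24 h and 2 labelled WT at 0 h. The study profiled whole uteri of mice with and without a knockout (KO) of Egr1, which encodes an early-response transcription factor, on Illumina MouseWG-6 v2 bead arrays at 0 h and at 3, 6 or 24 h following E2. Each group used here holds 2 arrays: WT at 0, 6 and 24 h, and KO at 0 and 24 h. WT at 3 h, with 3 arrays, appears only as levels over time. E2 is the only agent that the labels name. The strain, age and source of the mice, the E2 dose, any ovariectomy, any vehicle given at 0 h and the design of the knockout are not stated in the sources used here, and no label ties the arrays of a group to separate animals. The p-values therefore reflect only the spread among these samples, and that spread may be technical. Whole uterus mixes epithelium, stroma, smooth muscle, vessels and blood cells, so in these bulk samples a change in the number of cells of a type and a change in RNA per cell cannot be told apart.

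Estradiol acts through the nuclear estrogen receptor, which binds DNA and changes transcription of its target genes. In the rodent uterus the response comes in an early phase of fluid uptake and immediate-early transcription and a late phase in which the epithelium replicates its DNA, divides, thickens and secretes. Lactotransferrin is the classical secreted protein of that late phase. In a dividing cell, E2F factors control many genes of DNA replication, and a repressor complex that binds the cell cycle genes homology region (CHR) keeps many mitotic genes silent until the G2 phase.

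Values are log2 levels that were already normalized between arrays, and a gene is given by its brightest probe, so a change is relative to the rest of the array. Of 14737 genes tested with limma, 2781 were higher at 24 h than at 0 h (18.9% of those tested) and 2801 were lower (19.0%), at an adjusted p under 0.05. At least 2-fold changes among them numbered 201 higher and 270 lower, and at least 4-fold changes 27 and 28. The 2 arrays at 24 h lay wholly above or wholly below the 2 arrays at 0 h for 9917 genes (67.3%). The median change over all genes was 0.0026.

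One property of the arrays touches many of these results. The WT 0 h arrays correlated at 0.9904 with each other and the WT 24 h arrays at 0.9973, over all 45281 probes. WT 0 h replicate 1 correlated on average at 0.9770 with the 24 h arrays, and WT 0 h replicate 2 at 0.9568. Between the 0 h arrays 50 genes differed at least 2-fold, against 1 gene between the 24 h arrays. Without WT 0 h replicate 1 the comparison called 5670 genes, 753 of them changed at least 2-fold, and without WT 0 h replicate 2 it called 3681, of which 270 changed at least 2-fold. Where leaving out an array ended a call or moved a value by over 1.5 times, that value stands beside the result. Counts of 1 or 2 members could drop to 1 or 0 without an array.

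The tissue label was checked against markers of its cell types. Smooth muscle actin Acta2 read 15.92 and 15.87 at 0 h and 15.90 and 15.92 at 24 h, at the top of the arrays' range of 7.39 to 15.94, where a change would be compressed. The stromal proteoglycan Dcn read 15.05 and 15.23 at 0 h and 14.42 and 14.26 at 24 h, and the epithelial keratin Krt8 12.62 and 12.30 at 0 h and 13.50 and 13.45 at 24 h. Of the ovary and oviduct markers 3 of 10 were tested. The granulosa gene Inha lay near the array median of 8.20, between 8.13 and 8.36 on these arrays. The oviduct gene Ovgp1 lay above that median, at 9.42 and 9.56 at 0 h and 8.85 and 9.08 at 24 h. Adipocyte markers also stood above the array median at 0 h, with a list mean of 10.35 and 10.85, Lpl at 13.80 and 14.40 and Adipoq at 12.08 and 12.81.

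Markers of some cell types shifted with time, as the plot of marker lists shows. Epithelial markers were higher in 9 and lower in 2 of 13 tested, with the keratins Krt7 (2.20), Krt19 (1.25) and Krt8 (1.01) leading the rise, while the homeobox gene Msx1 (-1.46) and the Wnt ligand gene Wnt7a (-1.22) fell. Adipocyte markers were lower in 8 of 10, with a median change of -1.57. Their mean level read 10.35 and 10.85 at 0 h, 9.41, 9.77 and 9.24 at 3 h, 8.90 and 8.99 at 6 h and 9.22 and 9.01 at 24 h. The low state was thus already present at 6 h. Without WT 0 h replicate 2, 3 adipocyte markers were called lower, with a median of -1.26, and without WT 24 h replicate 1, 5 were, with a median of -1.56. Blood endothelial markers fell in 8 of 14, among them the junction protein Cdh5 (-1.03), while the fenestral diaphragm protein Plvap rose (1.10). Stromal fibroblast markers fell in 6 (3 without WT 0 h replicate 2) of 12, lymphatic markers in 3 of 6 and pericyte markers in 3 of 7. No macrophage marker of 13 passed the test, and 1 neutrophil marker of 9 did, as a fall.

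**Figure D1:**
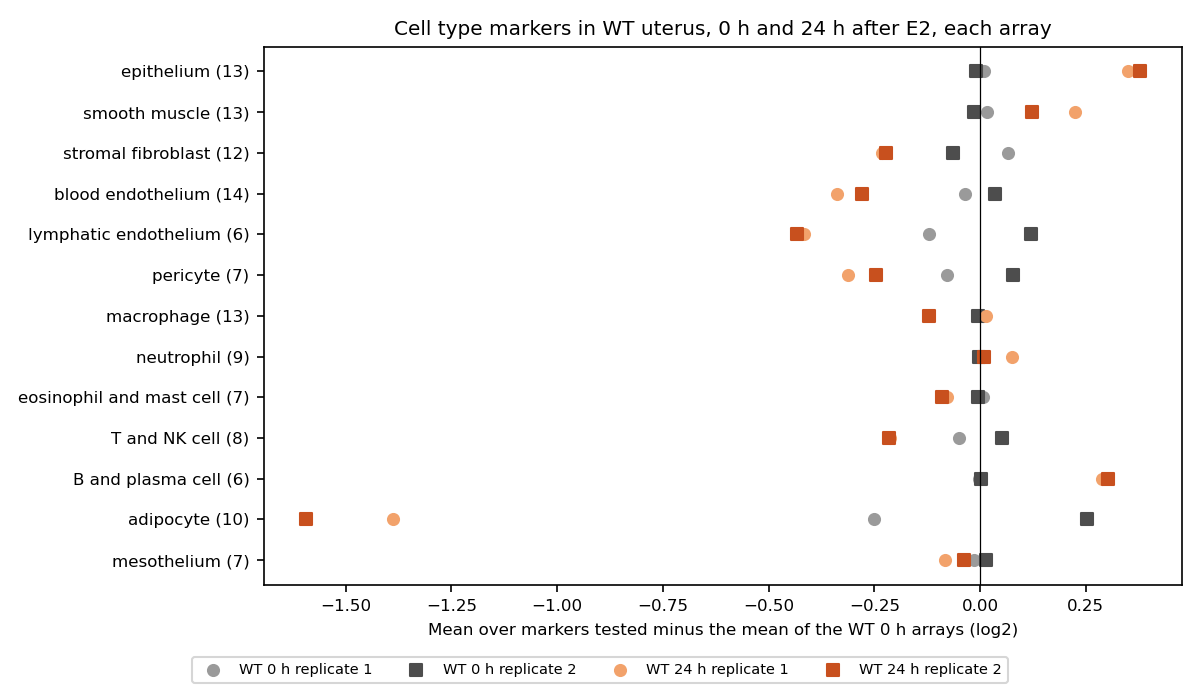
Mean log2 level over the markers tested of each cell type (number in brackets) on the WT 0 h and WT 24 h arrays, minus the mean of the 0 h arrays; circles are replicate 1 and squares replicate 2. The adipocyte means at 24 h lie furthest below those at 0 h, and the epithelial means lie above them.

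The first group of results concerns cell division. Genes of the mitotic spindle, kinetochore and chromosome segregation rose in 29 of 39 tested and fell in 1, with a median change of 0.76. Genes of the replication fork and of origin licensing rose in 20 of 34 with none lower, but their median rise was 0.41 and depended on which 0 h array was used. Enzymes of nucleotide synthesis rose in 17 of 22, and none fell.

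Promoter sequence was set beside these changes for the members with an entry in the RefSeq promoter table (mouse build GRCm38.p6), over a window from 250 bases before to 50 bases after each start site and on both strands. The E2F letters TTTNNCGC, where N is any base, stood in the promoters of 12 of 27 replication genes (44.4%), against 5.93% of the 27025 genes with a promoter searched. The CHR letters TTTGAA stood in those of 23 of 32 mitotic genes (71.9%), against 20.2% of all genes. These fragments lie upstream of the start site and were chosen from genes that rose, so they do not link the letters to the rise. Upstream E2F letters also stood in Mcm6 (0.55, adjusted p = 0.0685), Mcm7 (0.23, adjusted p = 0.103), Rfc3 (0.19, adjusted p = 0.0673) and Gins3 (0.09, adjusted p = 0.512), which did not pass. The same held for upstream CHR letters in Ube2c (0.21, adjusted p = 0.109) and Ncapg (0.03, adjusted p = 0.831). Each fragment is written 5′ to 3′ on the gene's strand, with the E2F or CHR match, or its reverse complement, in capitals.
Mcm5 (chr8:75109326-75109393, plus strand): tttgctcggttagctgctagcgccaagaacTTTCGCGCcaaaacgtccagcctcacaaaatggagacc
Cdc6 (chr11:98907983-98908050, plus strand): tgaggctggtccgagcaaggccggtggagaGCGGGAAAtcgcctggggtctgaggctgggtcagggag
Orc1 (chr4:108579397-108579453, plus strand): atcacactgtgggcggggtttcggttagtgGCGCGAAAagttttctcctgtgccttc
Cdc20 (chr4:118437344-118437391, minus strand): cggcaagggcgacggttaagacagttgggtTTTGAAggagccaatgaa
Prc1 (chr7:80294416-80294475, plus strand): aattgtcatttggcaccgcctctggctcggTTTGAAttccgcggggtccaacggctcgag
Top2a (chr11:99024190-99024242, minus strand): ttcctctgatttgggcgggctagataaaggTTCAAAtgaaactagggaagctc
Kif11 (chr19:37376333-37376381, plus strand): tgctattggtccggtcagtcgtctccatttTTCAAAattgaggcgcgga
In Mcm5 a match on the other strand overlaps the letters in capitals. The CHR matches of Cdc20, Prc1, Top2a and Kif11 end 12, 24, 17 and 13 bases before the start. Cdc20 rose by 1.63, Prc1 (a cytokinesis protein) by 1.42 ± 0.41 (SE, adjusted p = 0.0125), Top2a (topoisomerase II) by 1.27 ± 0.33 (SE, adjusted p = 0.00702) and Kif11 (a spindle motor) by 0.52 (0.35 without WT 0 h replicate 2). Prc1 did not pass without WT 0 h replicate 2 at 0.76 (adjusted p = 0.194) or without WT 24 h replicate 2 at 1.21 (adjusted p = 0.097), and Top2a did not without WT 0 h replicate 2 at 0.67 (adjusted p = 0.119). Orc1, of the origin recognition complex, rose by 0.21 ± 0.05 (SE, adjusted p = 0.00591) and did not pass without WT 24 h replicate 1 at 0.17 (adjusted p = 0.0671). A match is a string of letters and not a bound site.

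Among mitotic genes the largest rise was that of Mad2l1, a spindle checkpoint protein, which read 10.14 and 9.30 at 0 h and 11.30 and 11.48 at 24 h. Cdc20, the activator of the anaphase-promoting complex, read 10.36 and 9.42 at 0 h and 11.28 and 11.77 at 24 h, and the mitotic kinase gene Plk1 10.17 and 9.14 at 0 h and 10.97 and 11.47 at 24 h. All 3 were higher on both 24 h arrays than on either 0 h array. Their changes were 1.67 ± 0.24 (SE, adjusted p = 9.62e-05), 1.63 ± 0.30 (SE, adjusted p = 7.29e-04) and 1.56 ± 0.30 (SE, adjusted p = 9.39e-04). The cytokinesis scaffold gene Anln rose by 1.51 (1.00 without WT 0 h replicate 2), the spindle protein gene Nusap1 by 1.51, the survivin gene Birc5 by 1.40 (0.91 without WT 0 h replicate 2), the chromosomal passenger gene Cdca8 by 1.40 (0.91 without WT 0 h replicate 2) and the Aurora kinase genes Aurka and Aurkb by 1.21 and 1.06 (0.65 without WT 0 h replicate 2). Cenpa, the histone variant of centromeres, rose by 1.37 (adjusted p = 0.00672) but did not pass without WT 0 h replicate 2 at 1.06 (adjusted p = 0.0826) or without WT 24 h replicate 2 at 1.16 (adjusted p = 0.0646). The mean over the mitosis list read 9.37 and 8.82 at 0 h and 9.78 and 9.97 at 24 h, so the groups did not overlap, with WT 0 h replicate 1 the higher of the 0 h arrays. Leaving out WT 0 h replicate 2 left 20 mitotic genes called higher, and a fit of only the 4 arrays called 22.

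In the replication list, Dbf4, the regulatory subunit of the kinase that fires origins, read 9.62 and 9.08 at 0 h and 10.39 and 10.58 at 24 h and rose by 1.13 ± 0.13 (SE, adjusted p = 2.22e-05). Mcm5, a subunit of the replicative helicase, read 11.72 and 10.44 at 0 h and 12.18 and 11.87 at 24 h. WT 0 h replicate 1 thus lay just under the lower 24 h array and far above the other 0 h array. Mcm5 rose by 0.94 ± 0.30 (SE, adjusted p = 0.0244), by 1.58 without WT 0 h replicate 1, and by a change that did not pass without WT 0 h replicate 2 at 0.30 (adjusted p = 0.379) or without WT 24 h replicate 1 at 0.78 (adjusted p = 0.155). The replication factor gene Mcm10 rose by 1.11 (adjusted p = 0.0111), by 1.73 without WT 0 h replicate 1, and did not pass without WT 0 h replicate 2 at 0.49 (adjusted p = 0.181) or without WT 24 h replicate 1 at 0.88 (adjusted p = 0.107). Fen1, the flap endonuclease of lagging strands, rose by 0.88 and by 0.48 without WT 0 h replicate 2. The licensing factor gene Cdc6 rose by 0.83 ± 0.22 (SE, adjusted p = 0.00809) and did not pass without WT 0 h replicate 2 at 0.46 (adjusted p = 0.135) or without WT 24 h replicate 1 at 0.56 (adjusted p = 0.118). Over the list, 29 genes were called higher without WT 0 h replicate 1, 6 without WT 0 h replicate 2, 5 without WT 24 h replicate 1 and 24 without WT 24 h replicate 2, with median rises of 0.62, 0.20, 0.29 and 0.47. With only these 4 arrays in the fit the count was 2.

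Of the nucleotide synthesis enzymes, thymidine kinase Tk1 read 9.93 and 8.72 at 0 h and 10.68 and 10.50 at 24 h and rose by 1.27 ± 0.31 (SE, adjusted p = 0.00514), but by 0.66 without WT 0 h replicate 2, which did not pass (adjusted p = 0.0829). The ribonucleotide reductase subunit gene Rrm1 rose by 1.14 ± 0.18 (SE, adjusted p = 2.14e-04), thymidylate synthase Tyms by 1.11 ± 0.21 (SE, adjusted p = 9.16e-04), and Ppat, the entry enzyme of purine synthesis, by 0.84 ± 0.13 (SE, adjusted p = 1.93e-04). Without WT 0 h replicate 2 the rises of Rrm1 and Tyms were 0.76 and 0.63 and passed, and 7 list members were called. Without WT 24 h replicate 1 the count was 8, and with only the 4 arrays in the fit it was 6.

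Cell cycle regulators moved both ways, with 8 (4 without WT 0 h replicate 2 or WT 24 h replicate 1) higher and 4 lower of 27. Over all genes 18.9% were higher and 19.0% lower, and the share lower in this list was under the latter. Cdkn1c, which encodes the CDK inhibitor p57, had the largest change of the list. It read 13.10 and 13.73 at 0 h and 11.91 and 11.78 at 24 h and fell by 1.57 ± 0.14 (SE, adjusted p = 3.26e-06). The mitotic kinase gene Cdk1 rose by 1.18 ± 0.25 (SE, adjusted p = 0.00201) and by 0.69 without WT 0 h replicate 2. The D-type cyclin gene Ccnd2 fell by 0.67. Chromatin assembly genes rose in 8 (14 without WT 0 h replicate 1) of 17, led by the histone variant genes H2ax (1.14) and H2az1 (0.80) and by Uhrf1 (1.36), which recruits the maintenance DNA methyltransferase. Uhrf1 rose by 2.27 without WT 0 h replicate 1, and its change did not pass without WT 0 h replicate 2 at 0.46 (adjusted p = 0.479), without WT 24 h replicate 1 at 1.12 (adjusted p = 0.202) or without WT 24 h replicate 2 at 1.61 (adjusted p = 0.0615). DNA repair and checkpoint genes of S phase rose in 6 (2 without WT 0 h replicate 2 or WT 24 h replicate 1) of 15.

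The 12 genes with the largest rises, taken among genes whose 0 h and 24 h arrays do not overlap, were Sprr2f and Sprr2g (small proline-rich proteins of the cornified envelope), Lcn2, Ltf and Chil1 (secreted proteins of mucosal defence), Padi1 and Padi2 (enzymes that turn protein arginine into citrulline), Car12 (a membrane carbonic anhydrase), Aoc1 (a diamine oxidase), Bace2 (an aspartyl protease), Ckmt1 (a mitochondrial creatine kinase) and Ceacam2 (a cell adhesion protein). Their rises ran from 2.46 to 3.16, as the plot of named genes shows.

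Sprr2f read 11.09 and 10.61 at 0 h and 14.01 and 14.01 at 24 h, which is 8.95-fold higher, with a change of 3.16 ± 0.50 (SE, adjusted p = 2.32e-04). Lactotransferrin, Ltf, read 11.95 and 11.62 at 0 h and 14.69 and 14.48 at 24 h and rose by 2.80 ± 0.31 (SE, adjusted p = 1.48e-05), or 6.96-fold. Lipocalin 2, Lcn2, read 12.35 and 11.06 at 0 h and 14.62 and 14.56 at 24 h, with the 0 h arrays further apart than for Ltf, and rose by 2.88 ± 0.34 (SE, adjusted p = 2.28e-05). Each of the 3 genes was high on both 24 h arrays. Chil1, a chitinase-like secreted protein, was near the array median at 0 h and read 8.35 and 8.50 at 0 h and 11.08 and 11.32 at 24 h, a rise of 2.77 ± 0.23 (SE, adjusted p = 2.07e-06). At 6 h Ltf read 11.25 and 10.95, under its 0 h values, and Lcn2 read 13.82 and 13.71, above them. The levels at 24 h were therefore reached by different courses.

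**Figure D2:**
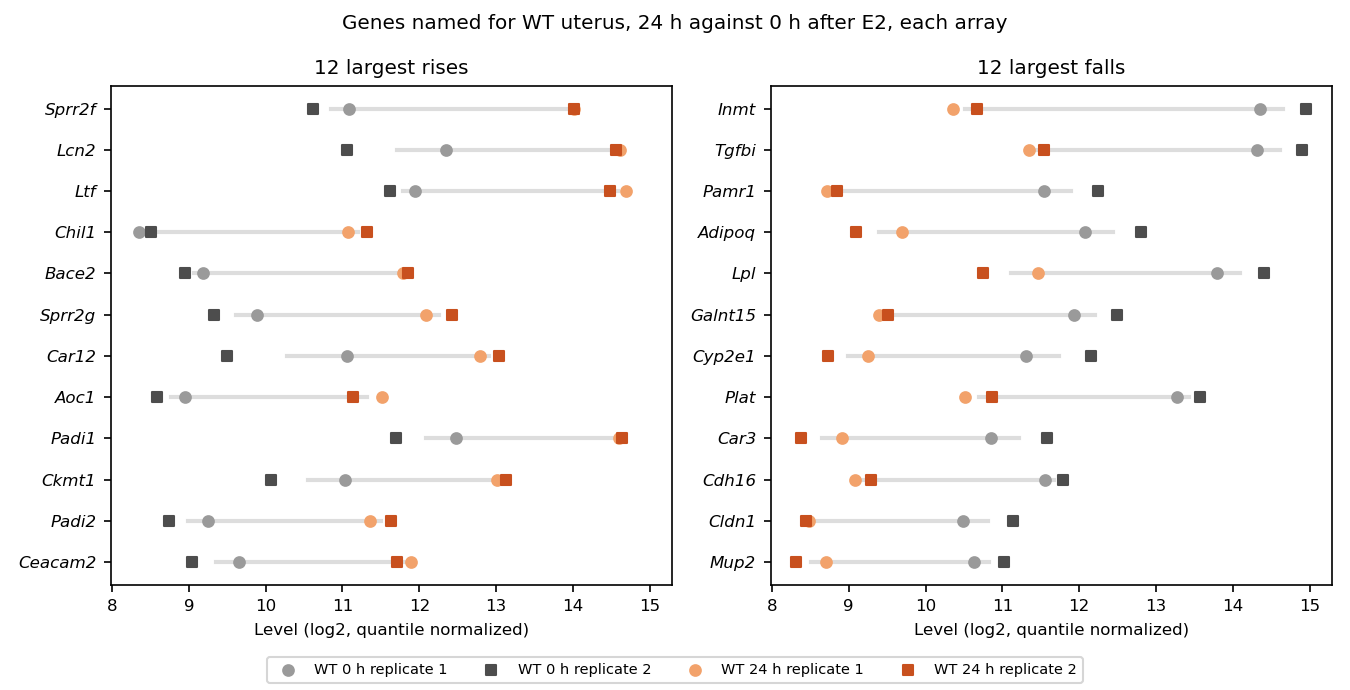
Log2 level on each WT 0 h array (grey) and WT 24 h array (orange) of the 12 genes with the largest rises (left) and the 12 with the largest falls (right) between 0 and 24 h, with circles for replicate 1 and squares for replicate 2; grey bars join the group means. The genes were taken among those whose arrays do not overlap, and the rises run from 2.46 to 3.16.

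Over the list of secreted defence and mucosal proteins, 7 of 23 rose and 2 fell, with a median change of 0.07, so the rise belonged to some members and not to the list as a whole. Besides the genes above, the cell surface mucin gene Muc1 rose by 2.07 ± 0.17 (SE, adjusted p = 1.64e-06) and Pigr, the receptor that carries IgA across epithelium, by 1.02 ± 0.13 (SE, adjusted p = 5.93e-05). Wfdc15b, of the WAP protease inhibitor family, fell by 1.71 ± 0.25 (SE, adjusted p = 1.30e-04). The antiprotease gene Slpi changed by 0.72 (adjusted p = 0.325) and the lysozyme gene Lyz2 by -0.48 (adjusted p = 0.329), neither past the test. Over all genes 18.9% were higher and 19.0% lower, and the share of complement genes higher was near the former. Among complement genes Cfb rose (1.39), and the C1 inhibitor gene Serping1 (-1.68) and C2 (-1.12) fell, in a list with 3 higher and 6 (3 without WT 0 h replicate 2 or WT 24 h replicate 1) lower of 13. The palindrome GGTCANNNTGACC, a full estrogen response element, stood in the same promoter window of 0 of 19 secreted defence genes and 0 of 16 cornification genes with a promoter searched, and of 0.074% of all genes.

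Cornified envelope and stratified epithelium genes rose in 15 and fell in 1 of 27. Padi1 read 12.48 and 11.70 at 0 h and 14.60 and 14.64 at 24 h and rose by 2.53 ± 0.23 (SE, adjusted p = 4.16e-06), and Padi2 read 9.25 and 8.74 at 0 h and 11.36 and 11.63 at 24 h and rose by 2.50 ± 0.17 (SE, adjusted p = 5.35e-07). Sprr2g read 9.89 and 9.33 at 0 h and 12.09 and 12.43 at 24 h. For each of these genes the 24 h arrays agreed more closely than the 0 h arrays. The Sprr2 genes are near copies of each other, and how far each probe sees its neighbours was not tested. Of the structural genes of skin in the list, involucrin, Ivl, rose by 0.33 (adjusted p = 0.00282), and loricrin, Lor, at a difference of 0.38 (adjusted p = 0.127) did not pass.

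Transport and surface genes of the epithelium moved alongside. Over all genes 18.9% were higher and 19.0% lower, and the share of transport genes lower was under the latter. Ion and water transport genes rose in 14 and fell in 5 (3 without WT 24 h replicate 1) of 33. Car12 read 11.06 and 9.50 at 0 h and 12.79 and 13.03 at 24 h and rose by 2.63 ± 0.42 (SE, adjusted p = 2.61e-04), and the cytosolic carbonic anhydrase gene Car2 read 10.71 and 10.04 at 0 h and 12.78 and 12.57 at 24 h and rose by 2.30 ± 0.22 (SE, adjusted p = 6.72e-06). The chloride channel regulator gene Clca1 rose by 1.56 ± 0.35 (SE, adjusted p = 0.0028), the water channel gene Aqp5 by 1.33 ± 0.18 (SE, adjusted p = 5.96e-05) and the chloride channel gene Cftr by 1.05. In contrast, Aqp1, a water channel of vessels, fell by 1.27 ± 0.20 (SE, adjusted p = 1.91e-04), and the sodium channel subunit gene Scnn1b by 0.77. Blood endothelial markers fell too, as given above, and their part in the fall of Aqp1 was not tested.

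Of 21 genes of epithelial junctions and polarity 9 were higher, beside 18.9% of all genes. In the same list 4 were lower, a share near the 19.0% of all genes. Claudin 1, Cldn1, read 10.49 and 11.13 at 0 h and 8.48 and 8.44 at 24 h and fell by 2.35 ± 0.16 (SE, adjusted p = 4.70e-07). Claudin 7, Cldn7, rose by 0.93 and claudin 23, Cldn23, by 0.70, while claudin 10, Cldn10, fell by 0.87. Claudin 5, Cldn5, an endothelial claudin, fell by 1.66. The vesicle transport gene Rab25 rose by 1.03 and the E-cadherin gene Cdh1 by 0.57, whereas Cdh16, another cadherin gene, read 11.56 and 11.79 at 0 h and 9.08 and 9.29 at 24 h and fell by 2.49 ± 0.18 (SE, adjusted p = 9.06e-07).

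Of the epithelial transcription factors, Elf3 read 10.27 and 9.42 at 0 h and 11.76 and 11.67 at 24 h and rose by 1.87 ± 0.19 (SE, adjusted p = 8.88e-06), and the splicing factor gene Esrp2 rose by 0.96. Sox17, a factor of uterine epithelium and vessels, fell by 1.17. The surface protease gene Tmprss4 rose by 1.41 ± 0.11 (SE, adjusted p = 1.64e-06). Genes of O-glycan synthesis and of other terminal glycosylation rose in 16 and fell in 4 of 28. Among them were the fucosyltransferase gene Fut2 at 1.85, B3gnt3 at 1.17 and Mgat4a, which branches N-glycans, at 1.03. Galnt15, which starts O-glycans, went the other way: it read 11.93 and 12.49 at 0 h and 9.39 and 9.51 at 24 h and fell by 2.76 ± 0.30 (SE, adjusted p = 1.55e-05).

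Arginine and polyamine genes included 3 of the stronger rises. Aoc1, which degrades histamine and putrescine, read 8.95 and 8.59 at 0 h and 11.51 and 11.14 at 24 h and rose by 2.55 ± 0.14 (SE, adjusted p = 1.45e-07). Arginase, Arg1, read 8.14 and 8.17 at 0 h and 10.26 and 10.45 at 24 h and rose by 2.20 ± 0.17 (SE, adjusted p = 1.38e-06). The argininosuccinate synthase gene Ass1 rose by 1.30 ± 0.07 (SE, adjusted p = 1.45e-07). The polyamine enzyme genes Srm and Odc1 rose by 1.08 (0.63 without WT 0 h replicate 2) and 0.85 (0.47 without WT 0 h replicate 2), and the serine synthesis gene Psat1 rose by 1.13 (0.70 without WT 0 h replicate 2), while the taurine transporter gene Slc6a6 fell by 0.88. Of all genes 18.9% were higher and 19.0% lower, and the share lower in this list was near the latter. The list as a whole had 8 higher and 4 (2 without WT 0 h replicate 1 or WT 24 h replicate 2 and 1 without WT 0 h replicate 2 or WT 24 h replicate 1) lower of 21.

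Cholesterol synthesis stood out among the biosynthetic lists, with 17 of 18 genes higher, none lower and a median rise of 0.97. Leaving out any 1 of the 4 arrays left 16 called. Fdps, which makes farnesyl diphosphate, read 11.62 and 10.27 at 0 h and 13.06 and 13.11 at 24 h and rose by 2.14 ± 0.32 (SE, adjusted p = 1.53e-04). The methylsterol oxidase gene Msmo1 read 10.23 and 9.76 at 0 h and 12.13 and 12.05 at 24 h, and Sqle, squalene epoxidase, 11.20 and 10.29 at 0 h and 12.77 and 12.84 at 24 h. No 0 h value of these genes came within 1 log2 unit of a 24 h value. Msmo1 rose by 2.09 ± 0.16 (SE, adjusted p = 1.50e-06), Sqle by 2.06 ± 0.22 (SE, adjusted p = 1.33e-05) and the lanosterol demethylase gene Cyp51 by 1.94 ± 0.20 (SE, adjusted p = 1.01e-05). Srebf2, whose product drives transcription of the pathway, rose by 1.03. The list mean read 9.42 and 9.07 at 0 h and 9.44, 9.39 and 9.45 at 3 h, so the 3 h arrays lay near WT 0 h replicate 1. From 3 h on it rose, to 9.94 and 9.92 at 6 h and 10.36 and 10.35 at 24 h. The sterol element letters TCACNCCAC were in the promoter window of 0 of 15 of these genes and of 1.44% of all genes.

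Fatty acid synthesis and desaturation genes had 4 (2 without WT 24 h replicate 1) higher and 1 lower of 16 and a median of 0.0078. Over all genes 18.9% were higher and 19.0% lower. The fatty acid synthase gene Fasn changed by -0.10 (adjusted p = 0.401). Scd1, a desaturase gene that fat cells also express, read 14.01 and 14.46 at 0 h and 12.22 and 11.92 at 24 h, a difference of -2.16 that did not pass (adjusted p = 0.0518). Thrsp, a lipogenic gene of fat and liver, fell by 1.20 ± 0.28 (SE, adjusted p = 0.00387). The adipocyte markers given above fell over the same arrays, and their part in the values of Scd1 and Thrsp was not tested.

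Energy and protein turnover genes rose broadly and moderately. Genes of the TCA cycle and respiratory chain rose in 17 of 19, with cytochrome c, Cycs, at 1.23 (0.78 without WT 0 h replicate 2) and citrate synthase, Cs, at 1.01. Glycolytic genes rose in 9 of 14, led by Pgk1 (1.20), Gapdh (1.01) and Ldha (0.90, and 0.57 without WT 0 h replicate 2). Proteasome subunit genes rose in 21 of 23, with Psmb5 at 1.02 and Psmd14 at 0.94, and none of the 3 lists had a member lower. Gapdh is used at times as a reference gene, and here it read 12.65 and 12.11 at 0 h and 13.32 and 13.45 at 24 h.

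Genes of ribosome assembly, of tRNA charging and of protein folding in the endoplasmic reticulum (ER) were above 0 h at 24 h but below their level at 6 h. Against 0 h they were higher in 15 (8 without WT 0 h replicate 2) of 22, 11 (7 without WT 0 h replicate 2) of 17 and 20 (7 without WT 0 h replicate 2 and 12 without WT 24 h replicate 1 or WT 24 h replicate 2) of 34. Against 6 h, where 19.3% of all genes tested were higher and 19.0% lower, they were lower in 16, 14 and 14 and higher in 1 each. The rRNA processing gene Rrp12 read 10.39 and 9.89 at 0 h, 12.25 and 12.34 at 6 h and 10.90 and 10.94 at 24 h. Aars, the alanyl-tRNA synthetase gene, read 11.11 and 10.52, 12.76 and 12.68 and 11.74 and 11.69 at the same times. On every array the 24 h values of both genes lay between those at 0 h and at 6 h. Its oligosaccharyltransferase gene Ddost rose by 1.19. Calr, a lectin chaperone gene, rose by 0.96 and by 0.61 without WT 0 h replicate 2.

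**Figure D3:**
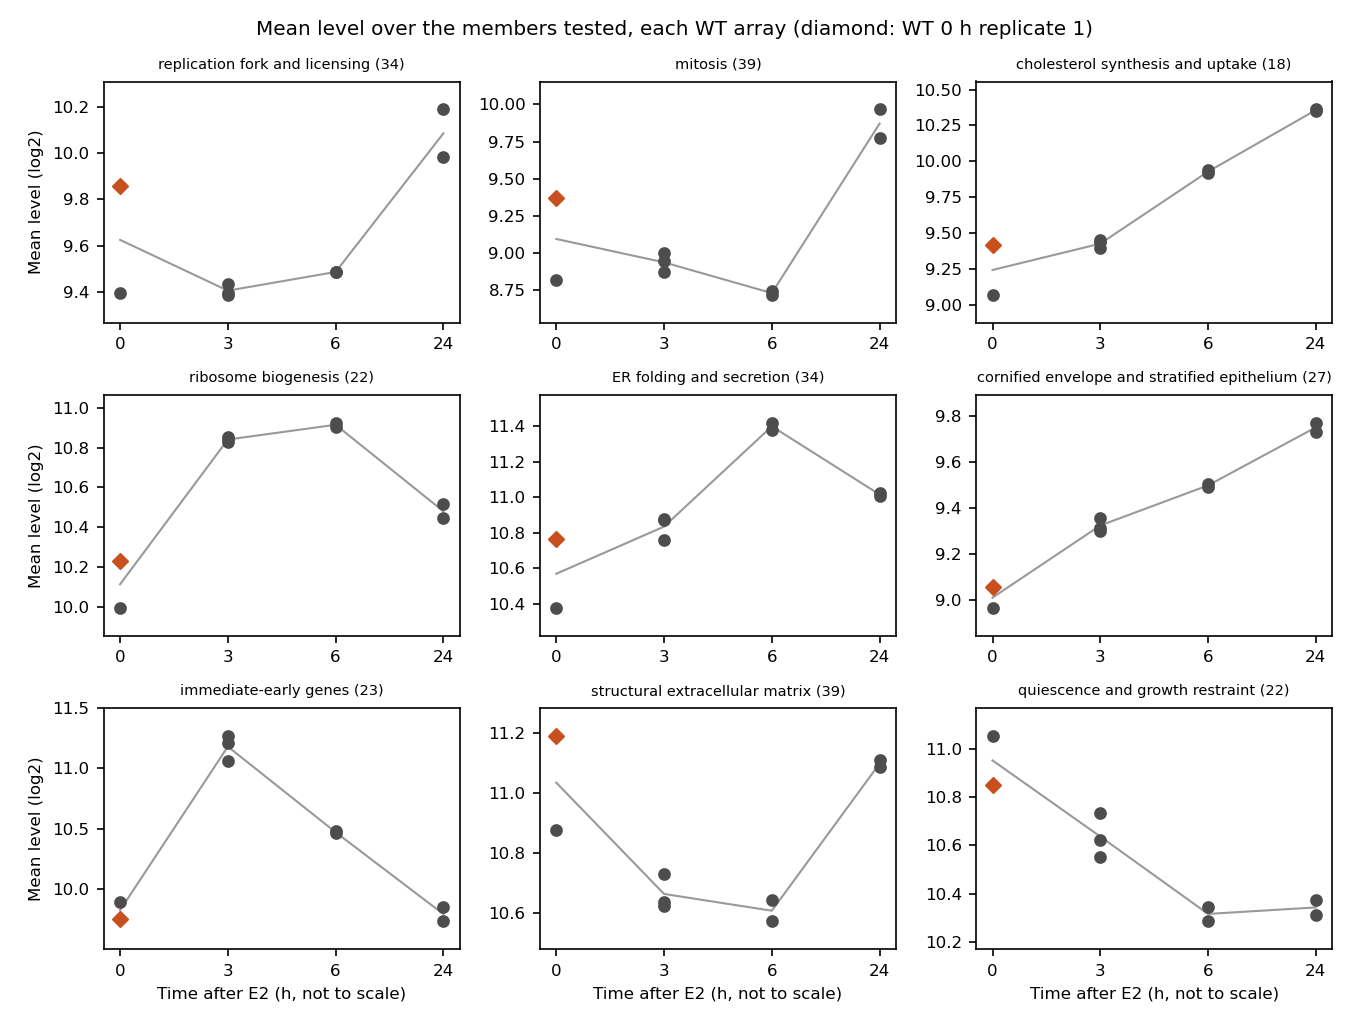
Mean log2 level over the members tested (number in brackets) of 9 gene lists on each WT array from 0 to 24 h after E2; points are arrays, the line joins group means, and the diamond is WT 0 h replicate 1. Ribosome biogenesis and ER folding lie below their 6 h level at 24 h, and mitosis is highest at 24 h. WT 0 h replicate 1 lies above the other 0 h array in every panel except immediate-early genes and growth restraint, where it lies below.

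**Figure D4:**
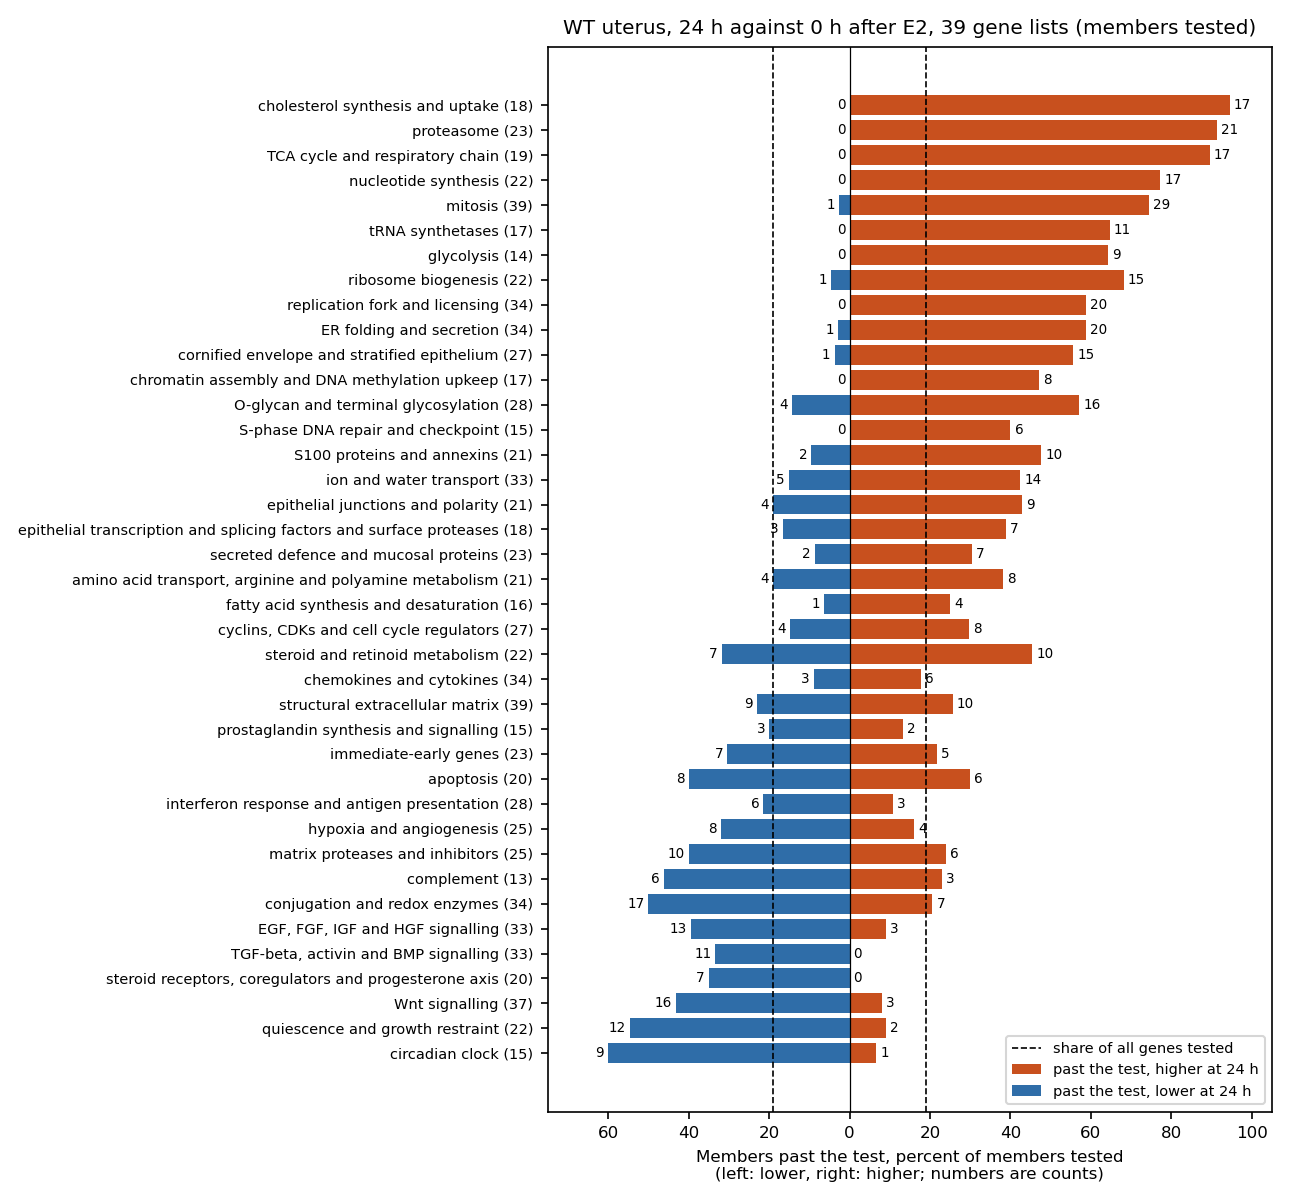
Share of the members tested that passed the test (limma, adjusted p under 0.05) higher (right) and lower (left) at 24 h than at 0 h in 39 gene lists, with counts at the bars; dashed lines mark the shares over all 14737 genes, 18.9% higher and 19.0% lower. Cholesterol synthesis, the proteasome and the respiratory chain have the highest shares that rose, and the circadian clock and growth restraint lists the highest shares that fell.

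The largest falls exceeded the largest rises. Inmt, an enzyme that methylates indole amines, had the largest fall, with a change of -4.14 ± 0.25 (SE, adjusted p = 2.82e-07), which is 17.7-fold. It read 14.36 and 14.96 at 0 h and 10.36 and 10.67 at 24 h. Tgfbi, a matrix protein gene induced by TGF-beta, read 14.32 and 14.90 at 0 h and 11.34 and 11.55 at 24 h and fell by 3.17 ± 0.20 (SE, adjusted p = 3.39e-07). The gene of tissue plasminogen activator, Plat, read 13.28 and 13.57 at 0 h and 10.51 and 10.87 at 24 h and fell by 2.74 ± 0.24 (SE, adjusted p = 3.20e-06). Pamr1, which encodes a secreted protein with a peptidase domain, read 11.55 and 12.24 at 0 h and 8.72 and 8.85 at 24 h and fell by 3.11 ± 0.20 (SE, adjusted p = 3.79e-07). Every 24 h value of these genes was at least 2 log2 units under every 0 h value. The falls among the 12 largest ended at Mup2 (-2.31), of the urinary protein family, whose members are near copies, so the member seen by its probe is uncertain.

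Inmt was 1 of 17 conjugation and redox enzymes that fell, of 34 tested, while 7 rose, a share near the 18.9% of all genes. The sulfotransferase genes Sult1a1 and Sult1d1 fell by 2.20 and 2.09, and the aldehyde oxidase gene Aox3 by 2.03. Cyp2e1, a cytochrome P450 gene, read 11.31 and 12.16 at 0 h and 9.25 and 8.72 at 24 h and fell by 2.75 ± 0.86 (SE, adjusted p = 0.0209), but did not pass without WT 0 h replicate 2 at -2.32 (adjusted p = 0.135), without WT 24 h replicate 1 at -3.01 (adjusted p = 0.0574) or without WT 24 h replicate 2 at -2.49 (adjusted p = 0.112). On the WT 3 h arrays Cyp2e1 read 9.54, 10.80 and 8.81, and the fat gene Adipoq 9.90, 10.59 and 9.50. The adipocyte markers given above fell from 0 to 24 h as well, and their part in the values of Cyp2e1 was not tested. The glutathione peroxidase genes Gpx2 and Gpx1 rose by 1.53 and 0.90.

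Fat genes made up part of the falls. Adiponectin, Adipoq, read 12.08 and 12.81 at 0 h and 9.70 and 9.10 at 24 h, lipoprotein lipase, Lpl, read 13.80 and 14.40 at 0 h and 11.46 and 10.75 at 24 h, and the carbonic anhydrase gene of fat and muscle, Car3, read 10.86 and 11.58 at 0 h and 8.91 and 8.38 at 24 h. All 3 were low on both 24 h arrays, with changes of -3.04 ± 0.73 (SE, adjusted p = 0.0045), -2.99 ± 0.49 (SE, adjusted p = 3.08e-04) and -2.58 ± 0.63 (SE, adjusted p = 0.00504). Without WT 0 h replicate 2 the fall of Car3 did not pass, at -2.21 (adjusted p = 0.053), nor did that of the lipid droplet gene Cidec, which changed by -1.71 with all arrays and -1.40 (adjusted p = 0.0647) without it. The defining fat genes Fabp4, at 8.13 and 8.25 at 0 h and 8.01 and 7.98 at 24 h, and Lipe, at 8.23 and 8.33 at 0 h and 8.28 and 8.20 at 24 h, were near the array median and did not pass, though Fabp4 did without WT 0 h replicate 1 at -0.25 (adjusted p = 0.0453). The sources used here do not give the amount of fat tissue in each sample, and its part in these falls was not tested.

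Genes of quiescence and growth restraint fell in 12 and rose in 2 of 22. Txnip, an inhibitor of thioredoxin and glucose uptake, read 14.65 and 15.15 at 0 h and 12.71 and 12.89 at 24 h and fell by 2.10 ± 0.23 (SE, adjusted p = 1.55e-05). Ypel3, a growth suppressor gene, read 14.09 and 14.61 at 0 h and 12.35 and 12.34 at 24 h and fell by 2.01 ± 0.28 (SE, adjusted p = 9.62e-05). The glucocorticoid-induced gene Tsc22d3 fell by 1.51, the Krüppel-like factor gene Klf9 by 1.39 and the insulin receptor substrate gene Irs2 by 1.27. Clock genes fell in 9 (5 without WT 0 h replicate 2) of 15 and rose in 1. The period genes Per1 and Per2 fell by 1.13 ± 0.15 (SE, adjusted p = 6.61e-05) and 1.09 ± 0.13 (SE, adjusted p = 2.15e-05), and Bhlhe40, a repressor in the clock loop, rose by 0.93 ± 0.11 (SE, adjusted p = 2.98e-05). Dbp, a clock output factor, fell by 0.81 (adjusted p = 0.00985) and did not pass without WT 0 h replicate 2 at -0.60 (adjusted p = 0.113) or without WT 24 h replicate 1 at -0.71 (adjusted p = 0.0797). The sources used here do not give the hour of the day at which each uterus was taken.

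Of the EGF, FGF, IGF and HGF genes 13 of 33 fell and 3 (0 without WT 24 h replicate 1) rose. Among ligands Igf1 read 12.13 and 10.92 at 0 h and 12.45 and 12.24 at 24 h and rose by 0.82 ± 0.30 (SE, adjusted p = 0.0438). Its rise was 1.42 without WT 0 h replicate 1, and it did not pass without WT 0 h replicate 2 at 0.22 (adjusted p = 0.582), without WT 24 h replicate 1 at 0.71 (adjusted p = 0.2) or without WT 24 h replicate 2 at 0.93 (adjusted p = 0.087). The second ligand gene, Igf2, fell by 1.03 ± 0.18 (SE, adjusted p = 4.52e-04) and the stromal ligand gene Fgf10 fell by 0.83. Among receptors Igf1r read 11.71 and 12.17 at 0 h and 10.23 and 10.22 at 24 h and fell by 1.72 ± 0.17 (SE, adjusted p = 8.14e-06), and the epithelial FGF receptor gene Fgfr2 fell by 1.40 ± 0.15 (SE, adjusted p = 1.05e-05). Of the binding proteins, which hold IGF away from its receptor, Igfbp3 read 11.35 and 11.88 at 0 h and 9.27 and 9.52 at 24 h and fell by 2.22 ± 0.20 (SE, adjusted p = 3.26e-06). Both 24 h arrays were under both 0 h arrays for Igf1r and Igfbp3.

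Wnt genes fell in 16 and rose in 3 (0 without WT 0 h replicate 2 and 1 without WT 24 h replicate 1 or WT 24 h replicate 2) of 37. Among ligands Wnt7a, made by the uterine epithelium, read 10.78 and 11.07 at 0 h and 9.61 and 9.80 at 24 h and fell by 1.22 ± 0.12 (SE, adjusted p = 8.69e-06), and Wnt6 fell by 1.02, while Wnt5a, a stromal ligand gene, rose by 0.51 ± 0.13 (SE, adjusted p = 0.00608). Wnt5a rose by 0.79 without WT 0 h replicate 1 and did not pass without WT 0 h replicate 2 at 0.24 (adjusted p = 0.0804) or without WT 24 h replicate 2 at 0.45 (adjusted p = 0.055). Among receptors Fzd10 fell by 1.85 ± 0.20 (SE, adjusted p = 1.15e-05). Of the secreted antagonists, Sfrp2 read 10.83 and 10.92 at 0 h and 9.10 and 9.33 at 24 h and fell by 1.66 ± 0.12 (SE, adjusted p = 7.66e-07), Dkk3 fell by 1.52 and Wif1 by 1.49. Axin2, a feedback target of the pathway, fell by 1.32 ± 0.14 (SE, adjusted p = 1.02e-05), and the stem cell receptor gene Lgr5 by 0.89. Ligands, receptors, inhibitors and targets were all among the genes that fell.

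TGF-beta, activin and BMP genes fell in 11 of 33, and none rose. Besides Tgfbi they included the activin receptor gene Acvr2b (-1.46), the BMP target Id2 (-1.26) and the ligand gene Bmp4 (-0.94, and -0.59 without WT 0 h replicate 2). Apoptosis genes moved both ways, 6 higher and 8 (5 without WT 0 h replicate 2) lower of 20. Of all genes, 18.9% were higher and 19.0% lower. Bcl2l11, which promotes cell death, fell by 1.36 ± 0.14 (SE, adjusted p = 8.84e-06), and Bcl2, which opposes it, fell by 1.09 ± 0.13 (SE, adjusted p = 3.52e-05).

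Structural matrix genes moved both ways, with 10 higher and 9 lower of 39 and a median change of -0.03. Both shares were near those of all genes, 18.9% higher and 19.0% lower. The 10 became 2 without WT 0 h replicate 2, 4 without WT 24 h replicate 1 and 5 without WT 24 h replicate 2. Collagen I, Col1a1, read 13.14 and 11.06 at 0 h and 13.48 and 13.40 at 24 h, so WT 0 h replicate 1 lay nearer to the 24 h arrays than to the other 0 h array. Its rise of 1.34 ± 0.50 (SE, adjusted p = 0.0488) was 2.38 without WT 0 h replicate 1 and did not pass without WT 0 h replicate 2 at 0.30 (adjusted p = 0.645), without WT 24 h replicate 1 at 1.30 (adjusted p = 0.163) or without WT 24 h replicate 2 at 1.38 (adjusted p = 0.133). Col1a2 rose by 1.02 (1.74 without WT 0 h replicate 1) and did not pass without WT 0 h replicate 2 at 0.31 (adjusted p = 0.207), without WT 24 h replicate 1 at 1.01 (adjusted p = 0.0726) or without WT 24 h replicate 2 at 1.04 (adjusted p = 0.0635). The collagen VI gene Col6a2 read 12.15 and 10.67 at 0 h and 13.16 and 13.24 at 24 h and rose by 1.79 ± 0.33 (SE, adjusted p = 7.42e-04), or 1.05 without WT 0 h replicate 2. Tenascin-X, Tnxb, fell by 1.53 ± 0.16 (SE, adjusted p = 8.69e-06), thrombospondin 2, Thbs2, by 1.17 and decorin, Dcn, by 0.80. The count lower was 9 without WT 0 h replicate 1 and 7 without WT 0 h replicate 2.

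Matrix proteases and their inhibitors fell in 10 and rose in 6 of 25, where 19.0% of all genes were lower and 18.9% higher. Besides Plat and Pamr1, the stromelysin gene Mmp10 fell by 1.62 ± 0.16 (SE, adjusted p = 6.54e-06) and the serine protease gene Htra3 by 1.55 ± 0.17 (SE, adjusted p = 1.31e-05). The metalloprotease inhibitors went both ways, with Timp1 up by 1.01 ± 0.19 (SE, adjusted p = 8.20e-04) and Timp3 down by 1.11 ± 0.13 (SE, adjusted p = 2.73e-05).

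Of 34 chemokines and cytokines 6 rose, a share near the 18.9% of all genes, and 3 fell. Ccl11, which attracts eosinophils, read 9.88 and 9.44 at 0 h and 11.32 and 11.53 at 24 h and rose by 1.76 ± 0.35 (SE, adjusted p = 0.0013), and the mucosal chemokine gene Cxcl17 read 8.73 and 8.72 at 0 h and 10.24 and 10.13 at 24 h and rose by 1.46 ± 0.11 (SE, adjusted p = 1.12e-06). Cxcl14 fell by 1.51 ± 0.11 (SE, adjusted p = 1.20e-06) and Cxcl12, a stromal chemokine gene, by 1.10 ± 0.13 (SE, adjusted p = 2.42e-05). The marker and interferon counts that follow stand beside shares over all genes of 18.9% higher and 19.0% lower. The share of interferon genes higher was under the former, and the share lower was near the latter. Eosinophil and mast cell markers were lower in 2 (0 without WT 0 h replicate 1 or WT 24 h replicate 1 or WT 24 h replicate 2 and 1 without WT 0 h replicate 2) and higher in 0 of 7, and the eosinophil peroxidase gene Epx read 8.09 and 8.20 at 0 h and 8.15 and 8.21 at 24 h, near the array median. Interferon response and antigen presentation genes were higher in 3 (1 without WT 0 h replicate 2 and 0 without WT 24 h replicate 1) and lower in 6 (1 without WT 0 h replicate 2 or WT 24 h replicate 2 and 2 without WT 24 h replicate 1) of 28. The class II antigen presentation gene H2-Ab1 fell by 1.01 ± 0.33 (SE, adjusted p = 0.0269) and did not pass without WT 0 h replicate 2 at -0.89 (adjusted p = 0.144), without WT 24 h replicate 1 at -1.07 (adjusted p = 0.0814) or without WT 24 h replicate 2 at -0.96 (adjusted p = 0.117).

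Of the 20 hormone receptor, coregulator and progesterone axis genes none rose and 7 fell. Their mean level read 9.77 and 9.77 at 0 h, 9.77 and 9.80 at 6 h and 9.51 and 9.56 at 24 h. The estrogen receptor gene Esr1 read 11.37 and 11.24 at 0 h and 11.32 and 11.28 at 24 h, after 10.60 and 10.72 at 6 h. The progesterone receptor gene Pgr, an estrogen target, read 9.91 and 9.31 at 0 h and 9.72 and 9.68 at 24 h and changed by 0.09 (adjusted p = 0.698), after 10.66 and 10.77 at 6 h. Its sign rested on the 0 h array used: the change was 0.39 (adjusted p = 0.00587) without WT 0 h replicate 1 and -0.21 (adjusted p = 0.136) without WT 0 h replicate 2. The hedgehog ligand gene Ihh fell by 0.82 ± 0.11 (SE, adjusted p = 4.97e-05), its receptor gene Ptch1 by 1.54 ± 0.19 (SE, adjusted p = 3.28e-05) and Nr2f2, the stromal nuclear receptor gene of the same axis, by 0.72 ± 0.09 (SE, adjusted p = 5.66e-05). Ligand, receptor and stromal factor of this axis therefore all fell.

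In steroid and retinoid metabolism 10 rose and 7 (4 without WT 24 h replicate 2) fell of 22. Hsd11b2, which inactivates glucocorticoid, read 11.27 and 9.23 at 0 h and 11.88 and 11.88 at 24 h and rose by 1.63 ± 0.45 (SE, adjusted p = 0.00984). It rose by 2.65 without WT 0 h replicate 1 and did not pass without WT 0 h replicate 2 at 0.61 (adjusted p = 0.119). Hsd11b1, which regenerates glucocorticoid, fell by 0.93 ± 0.13 (SE, adjusted p = 8.57e-05). The retinoic acid synthesis genes Aldh1a1 and Aldh1a3 fell by 1.51 and 1.16, while Aldh1a2 rose by 0.84. Of all genes 18.9% were higher and 19.0% lower, and the share of hypoxia genes higher was under the former. Hypoxia and angiogenesis genes were higher in 4 and lower in 8 (5 without WT 0 h replicate 2) of 25, with the prolyl hydroxylase gene Egln3 up by 1.63 ± 0.10 (SE, adjusted p = 3.79e-07) and the vessel growth factor gene Angpt2 down by 1.11 ± 0.13 (SE, adjusted p = 2.47e-05).

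The second comparison set WT 24 h against WT 6 h, to show where the late state differs from the early one. The 0 h arrays did not enter its log2 differences, but they did enter the spread behind its SE and p-values. With only the WT 6 h and 24 h arrays in the fit, 7170 genes were called, against 5638 with all 17 arrays. Of 14737 genes, 2841 were higher (19.3%) and 2797 lower (19.0%) at 24 h, and 350 and 218 of them by at least 2-fold. Mitotic genes were higher in 30 of 39 with a median of 1.17, and replication genes in 24 (13 without WT 24 h replicate 1) of 34 with a median of 0.55, and neither list had a member lower. Since WT 0 h replicate 1 is not in this contrast, its high replication values do not enter the difference. Immediate-early genes were lower in 16 of 23 and higher in 1, with Egr1 at 13.85 and 13.97 at 6 h and 11.39 and 12.09 at 24 h. Socs3, a cytokine feedback inhibitor gene, fell by 1.97 ± 0.19 (SE, adjusted p = 2.55e-06).

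Of the genes with the largest rises from 6 to 24 h, Ltf read 11.25 and 10.95 at 6 h and 14.69 and 14.48 at 24 h and rose by 3.49 ± 0.31 (SE, adjusted p = 1.52e-06). Col1a1 read 10.08 and 10.40 at 6 h and 13.48 and 13.40 at 24 h and rose by 3.20 ± 0.50 (SE, adjusted p = 1.62e-04). The collagen III gene Col3a1 read 9.41 and 9.46 at 6 h and 11.92 and 11.99 at 24 h and rose by 2.52 ± 0.34 (SE, adjusted p = 4.69e-05). These genes, too, were taken among those whose arrays do not overlap. Clca1 rose by 3.15, Cenpa by 2.75, Dbp by 2.72, Aoc1 by 2.67 and Bcl2l15, of the BCL2 family, by 2.51. The structural matrix list had 17 higher and 6 (2 without WT 6 h replicate 2 and 3 without WT 24 h replicate 1) lower. Its mean read 11.19 and 10.88 at 0 h, 10.57 and 10.64 at 6 h and 11.11 and 11.09 at 24 h, so the 6 h arrays were the lowest.

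Of the genes with the largest falls from 6 to 24 h, the GABA and taurine transporter gene Slc6a13 read 12.08 and 12.16 at 6 h and 8.40 and 8.50 at 24 h and fell by 3.67 ± 0.16 (SE, adjusted p = 8.49e-09), and its 0 h values were 8.03 and 8.40. The collagen VIII gene Col8a2 read 12.50 and 12.40 at 6 h and 9.16 and 9.25 at 24 h and the aggrecan-cleaving protease gene Adamts4 11.86 and 11.66 at 6 h and 8.93 and 9.04 at 24 h. Adamts4 read 8.52 and 8.66 at 0 h, so both it and Slc6a13 were nearer to their 0 h than to their 6 h values. Further falls were those of Tmem200a (-3.26), Inmt (-3.13), the actin-binding protein gene Synpo (-2.78), the noradrenaline transporter gene Slc6a2 (-2.58) and the scaffold protein gene Whrn (-2.57). Slc6a2 read 10.73 and 10.76 at 0 h and 9.16 and 9.52 at 24 h, and like Inmt it also fell against 0 h (-1.40 ± 0.18 (SE, adjusted p = 3.97e-05)).

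The third comparison asked where the change from 0 to 24 h in arrays labelled WT differed from that in arrays labelled KO, with the interaction term of the same fit. It called 1071 of 14737 genes, 607 with a higher change in KO (4.12%) and 464 with a lower one (3.15%). The Egr1 probe did not check the labels, since the sources used here do not say whether it lies within what was disrupted. It read 12.24 and 12.51 (WT) and 13.48 and 13.63 (KO) at 0 h, and 11.39 and 12.09 (WT) and 13.51 and 13.27 (KO) at 24 h, so it was not lower in the libraries labelled KO. Below, WT and KO mean the libraries labelled so. Without WT 0 h replicate 1 the interaction called 533 genes and without WT 0 h replicate 2 it called 2258, and leaving out any other of the 8 arrays gave 375 to 718.

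Replication genes had a larger rise in KO than in WT for 25 of 34, with a median difference of 0.85 and none in the other direction. That count was 13 without KO 0 h replicate 2, 11 without KO 24 h replicate 1, 15 without KO 24 h replicate 2 or WT 0 h replicate 1 and 7 without WT 24 h replicate 2. Their mean level read 9.26 and 9.30 in KO and 9.86 and 9.39 in WT at 0 h, and 10.66 and 10.55 in KO and 10.19 and 9.98 in WT at 24 h. The 24 h arrays labelled KO were thus above those labelled WT. A fit of only the 8 arrays of these groups called 9. Without WT 0 h replicate 1 the median difference was 0.62. Mcm5 read 9.93 and 10.15 at 0 h and 12.91 and 12.78 at 24 h in KO, and its rise exceeded that in WT by 1.86 ± 0.43 (SE, adjusted p = 0.0205). That excess was 1.22 (adjusted p = 0.0356) without WT 0 h replicate 1, and it did not pass when any 1 of the KO arrays or WT 24 h replicate 2 was left out, at adjusted p from 0.0505 to 0.0859. The histone H2A genes H2ac12 (1.82) and H2ac15 (1.75), near copies that a probe may not tell apart, and the repair gene Rad54b (1.89) also had a higher change in KO, though H2ac12 and H2ac15 passed in no fit that left out an array other than WT 0 h replicate 2. Among the genes with a lower difference, Gsta3, a glutathione transferase gene, was at -2.31 and did not pass when any 1 of KO 0 h replicate 2, the KO 24 h arrays, WT 0 h replicate 1 or WT 24 h replicate 1 was left out, at adjusted p from 0.0515 to 0.0655. Mitotic genes had a larger change in KO in 2 of 39 (15 without WT 0 h replicate 2, and 0 when any other of the 8 arrays was left out), and cholesterol synthesis genes in 0 (3 without WT 0 h replicate 2) of 18, where a p above the threshold does not show equal change.

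In the other direction, secreted defence genes had a lower change in KO in 6 of 23 and a higher one in 1. The count lower was 3 when any 1 of the KO 24 h arrays, the WT 24 h arrays or WT 0 h replicate 1 was left out. Epithelial markers moved with them, with a lower change in KO in 7 and a higher one in 1 of 13, and the count lower was 4 without KO 0 h replicate 1 or KO 24 h replicate 1 or WT 24 h replicate 2 and 3 without KO 24 h replicate 2 or WT 24 h replicate 1. Their mean level read 10.21 and 10.20 in KO and 10.21 and 10.19 in WT at 0 h, and 10.40 and 10.32 in KO and 10.54 and 10.57 in WT at 24 h, and their part in the secreted genes' values was not tested. Slpi read 9.38 and 11.87 at 0 h and 8.57 and 8.64 at 24 h in KO, and 9.10 and 9.07 at 0 h and 10.04 and 9.57 at 24 h in WT, a difference of -2.74 ± 0.72 (SE, adjusted p = 0.0367). Hp, the haptoglobin gene, read 10.95 and 12.54 at 0 h and 8.76 and 9.24 at 24 h in KO, and 9.64 and 9.74 at 0 h and 9.27 and 9.26 at 24 h in WT, a difference of -2.32 ± 0.60 (SE, adjusted p = 0.0333). KO 0 h replicate 2 was the high array for both genes, and the macrophage and neutrophil lists were high on it too, and their part in these values was not tested. The macrophage list mean was 9.86 and 10.69 on the KO and 9.72 and 9.71 on the WT 0 h arrays, and the neutrophil mean 8.29 and 9.29 on the KO and 8.25 and 8.24 on the WT 0 h arrays. Without that array the difference was -1.50 (adjusted p = 0.0257) for Slpi and -1.52 (adjusted p = 0.108) for Hp. Neither gene passed when any 1 of the 24 h arrays or WT 0 h replicate 1 was left out, at adjusted p from 0.0802 to 0.126 for Slpi and 0.0678 to 0.115 for Hp. Ccl21a, a lymphatic chemokine gene, read 13.32 and 13.36 at 0 h and 10.67 and 9.96 at 24 h in KO and 12.89 and 13.09 at 0 h and 12.71 and 12.33 at 24 h in WT, a difference of -2.55 ± 0.30 (SE, adjusted p = 7.09e-04). Ccl21c and LOC100041504, near copies of Ccl21a that its probes may share, followed with -3.02 and -2.55. Serpinb11, a serpin gene, was at 0 h in KO already near the array median of 8.20 and under its WT 24 h values. A fall in KO thus had little room. Serpinb11 fell from 10.76 and 10.93 to 9.04 and 8.91 in WT and read 8.63 and 8.43 at 0 h and 9.13 and 9.29 at 24 h in KO, a difference of 2.55 ± 0.52 (SE, adjusted p = 0.0126). It did not pass without KO 24 h replicate 2 at 2.47 (adjusted p = 0.0509) or without WT 24 h replicate 2 at 2.49 (adjusted p = 0.051).

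**Figure D5:**
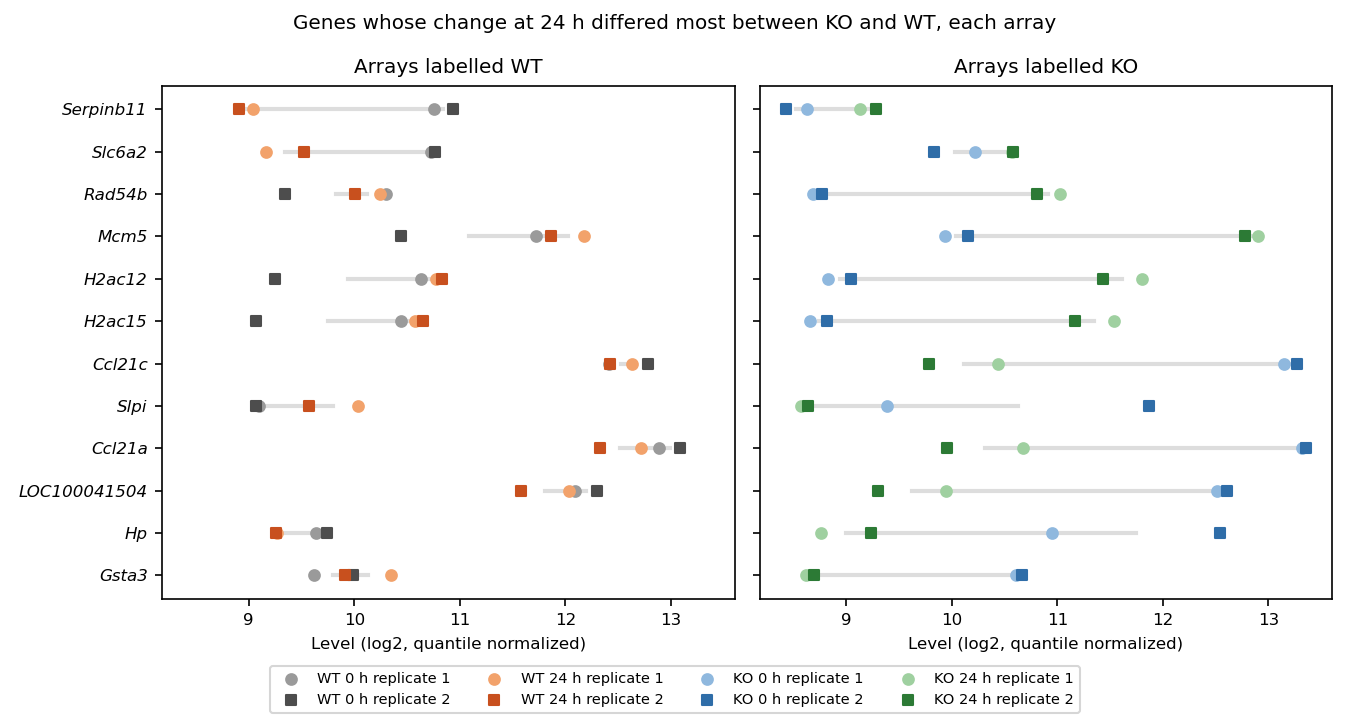
Log2 level on each array at 0 h and 24 h of the 12 genes whose change differed most between arrays labelled WT (left) and KO (right), with circles for replicate 1 and squares for replicate 2 and grey bars joining the group means. Serpinb11 and Slc6a2 fell in WT and not in KO, and Ccl21a and Ccl21c fell in KO to 9.79 to 10.67. In KO at 0 h Serpinb11 already lay under its WT 24 h values, at 8.63 and 8.43.

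For some of the genes named here another probe of the same gene moved less. Of the 174 named genes that passed at 24 h against 0 h, 96 had a further probe past the filter on dim signals, and for 49 a further probe changed by under 25% of the value given or in the other direction. Of those 63 further probes 62 had a mean level under 8.87, the 75th percentile of the arrays. Their median level was 8.20, against 10.32 for the probes that stand for the same genes. The genes include Lpl, Pamr1, Galnt15, Plat, Padi2, Bace2, Ceacam2, Tk1, Cenpa, Igf1r, Ypel3 and Tnxb, whose values rest on their brightest probe.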

How the data were processed

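Biotin-labelled RNA from whole mouse uteri was measured on 17 Illumina MouseWG-6 v2 arrays, of which the comparison of 24 h with 0 h uses 4. The deposited values are log2 intensities, 1 per probe and array, read with BeadStudio by the authors, per the submitters' processing notes; the sources used here give neither its version nor the background correction. The sorted values are identical on all 17 arrays, as quantile normalization leaves them. They were used as deposited, without a detection call. The number of arrays limits the precision.

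Of 45281 probes, 34885 carry 1 gene symbol in GEO's platform annotation, 18 carry several and 10378 are not listed there. A probe was kept when it exceeded the array median on at least 2 arrays, and the brightest kept probe stood for its gene, which left 14737 genes. A model with 8 group means over all 17 arrays was fitted with limma 3.58.1 (R 4.3.3), with 9 residual degrees of freedom and a prior of 4.56. P-values were adjusted by Benjamini-Hochberg over all genes, with a threshold of 0.05, and every adjusted p in the text is from such a fit. SE is the moderated standard error of a log2 difference.

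Named genes are the 12 largest changes in each direction at 24 h against 0 h and the 8 against 6 h, among genes past the test whose arrays do not overlap, the 6 largest in each direction of the interaction, and members of 39 pathway and 16 marker lists, the largest changes first. The members and lists were chosen with earlier results of these data known. Lists are described by counts beside the share over all genes, without a test. Alternatives were other filters, probe means, a prior trend, cyclic loess, a replicate block, fits of only the groups compared, and leaving out each array. The fitting was tested on simulated data with known changes.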

Additional observations from a re-analysis of the deposited data

Results flagged for a closer look

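Of 202 genes named and tested, 40 had a change from 0 to 24 h that differed between KO and WT by the interaction term of the limma fit. Over all genes the change in KO was higher in 4.12% and lower in 3.15%. The count of 40 cannot be read against these shares, since genes were named for the interaction itself or often for a large WT change. Each difference below subtracts the WT change from the KO change on the log2 scale. Naming by the WT change thus leans towards lower differences for genes that rose in WT and higher ones for genes that fell. The groups differ in level at 0 h for some of them, and why the changes differ was not tested. Leaving out each of the 8 arrays in turn, 16 of these genes passed every time, and between 2 (without WT 0 h replicate 2) and 20 (without KO 24 h replicate 1) lost the call. The other arrays cost 8 calls (KO 0 h replicate 1), 11 (WT 0 h replicate 1), 17 (KO 0 h replicate 2), 17 (KO 24 h replicate 2), 18 (WT 24 h replicate 1) and 19 (WT 24 h replicate 2).

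These genes had a lower change in KO, most of them genes of secretion, surface and metabolism that rose in WT. Among those that passed without each array in turn, Arg1 differed by -1.94, Cxcl17 by -1.70, Aoc1 by -1.26, Pigr by -0.97, Egln3 by -0.78, Cldn23 by -0.77, Ass1 by -0.76 and Gpx1 by -0.56. Among those that lost the call without some arrays, Slpi differed by -2.74, Hp by -2.32, Gsta3 by -2.31, Chil1 by -1.24, C2 by -1.18, Ceacam2 by -0.87, Timp3 by -0.76, Mgat4a by -0.74 and Cdh1 by -0.48. The lymphatic chemokine genes Ccl21c at -3.02, Ccl21a at -2.55 and LOC100041504 at -2.55 also passed without each array in turn.

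Several genes that fell in WT had a higher change in KO. Of those that passed without each array in turn, Slc6a2 differed by 1.95, Nr2f2 by 1.09, Ccnd2 by 1.01 and Wnt7a by 0.97. Serpinb11 differed by 2.55, Plat by 1.64, Wif1 by 1.32, Ptch1 by 1.02, Cxcl14 by 0.77, Scnn1b by 0.75, Lgr5 by 0.70 and Ihh by 0.56, and each lost the call without at least 1 array. Genes of replication, repair, nucleotide synthesis and histones had a higher change in KO, with Rad54b at 1.89, Mcm5 at 1.86, Cdc6 at 1.42, Fen1 at 1.34, the histone genes H2ac12 at 1.82 and H2ac15 at 1.75, and Tyms at 1.27. Pgr differed by 0.79. Mcm5, Cdc6, Fen1, H2ac12, H2ac15, Tyms and Pgr lost the call without at least 1 array.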

How the results depend on the processing

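None of the named genes past the test changed direction under an alternative. Of all genes past the test, 38 (24 h against 0 h) and 20 (against 6 h) changed sign with probe means, 4 and 3 of them past the test there; 1 did against 6 h with the stricter filter and 2 in the interaction without a filter, and none under the others. The count of genes changed from 0 to 24 h was 5582, and 3681 to 5670 when an array was left out; the lowest was without WT 0 h replicate 2. Those changed at least 2-fold numbered 471, with 270 to 753 when an array was left out, lowest without WT 0 h replicate 2 and highest without WT 0 h replicate 1. The interaction called 1071 genes, and 375 to 2258 with an array left out, lowest without WT 24 h replicate 2 and highest without WT 0 h replicate 2; at least 2-fold it called 120, and 75 to 241. Against 6 h the count was 5638, and 4339 to 4412 when an array was left out. Cyclic loess, a prior trend, both filters, probe means, the fits of only the groups compared and the replicate block kept all 6 counts within 1.5 times, with 4204, 7170 and 719 genes when only the groups compared were fitted. The replicate number as a block gave 5529, 5602 and 1028 genes. Deviations of same-numbered arrays from their group means correlated at 0.085 between WT 0 h and 24 h, at -0.035 between WT 6 h and 24 h and at 0.123 between KO 0 h and 24 h, and from -0.195 to 0.299 over all pairs of groups, so the numbers were not taken to pair the arrays. The numbers give the order of the arrays in a group. In KO at 3 h replicates 1 and 2 are titled B and C, so there neither the block nor these correlations follow the title letters. Under the block Col1a1 and, in the interaction, Slpi lost their calls. Of 174 named genes called at 24 h against 0 h, 21 lost the call with some array left out and 18 when only the 4 arrays were fitted: Cdc6, Cdk1, Col1a1, Col1a2, Egr1, Fen1, Hsd11b2, Igf1, Mcm10, Mcm5, Odc1, Orc1, Prc1, Tk1, Top2a, Tyms, Uhrf1 and Wnt5a. In the interaction Mcm5, H2ac12, H2ac15, Slpi and Hp lost it in the fit of the 8 arrays. Probe means or the fit without a filter ended the calls of Col1a1, H2-Ab1 or Igf1, and cyclic loess that of Col1a1. Of 110 list counts at 24 h against 0 h, 40 moved by over 1.5 times with an array left out and 25 in the fit of the 4 arrays. Causes were not tested. Groups of 2 arrays, probes near background and Acta2 near the top of the range limit these results.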
